A study of Mus musculus with 2 samples.

Results

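The cells described here are goblet-type cells of the mouse colon that were rich in the mucin transcript Muc2, held few or no transcripts of Reg4 and held none of Kit. They were chosen by their own counts. A cell barcode was kept if it had at least 5000 unique molecular identifiers (UMIs, 1 per captured transcript) and at most 25% of them from mitochondrial genes. A kept cell was taken if it had at least 50 Muc2 UMIs per 10000, 0 Kit UMIs and at most 2 Reg4 UMIs. This gave 422 cells, 105 of 5366 kept cells in the whole epithelium library and 317 of 3963 in the GFP library, called selected cells in the text and members in the plots. Muc2, Kit and Reg4 are therefore part of the definition, and their values are given as a description.

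The whole epithelium library came from untreated c-Kit-creERT2 mice, with no sort for a marker named in the labels. For the GFP library the mice were c-Kit-creERT2;Rosa26-mTG, sampled after 1 intraperitoneal tamoxifen injection (1 mg per 20 g body weight). GFP-positive cells were collected by flow sorting, and the labels describe them as the descendants of c-Kit+ cells. Both groups carry the recombinase allele driven by the Kit gene, and tamoxifen, the reporter allele and the sort all separate them together, so these cannot be told apart. The ages, the number of animals pooled and the time from injection to sampling are not given in the sources used here. Each group is 1 library, and the differences below carry no replicate check. Intervals in brackets are exact 95% intervals for counting error only, which leave out animals, library preparation and variation among cells.

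Goblet cells make the mucus of the colon. They store the gel-forming mucin MUC2 in granules together with proteins that crosslink, process or bind it, among them the metalloprotease CLCA1, the IgG Fc binding protein FCGBP, the lectin-like protein ZG16 and the trefoil peptide TFF3. They arise near the crypt base under the transcription factor ATOH1 and mature on their way to the surface with SPDEF. A secretory cell of the colon crypt base, marked by REG4 and KIT, is known to sit beside the stem cells.

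The 2 libraries held 13967 and 13575 barcodes with 164185392 and 150348319 UMIs. Each count matrix was deposited under the other sample's record and was given to the sample whose barcode list has the same length, so every difference between the libraries would turn with the reverse assignment. The lists share 60 barcode strings, 8 of them kept in both. Xist, the RNA of the inactive X chromosome, had no UMI in the 105 whole epithelium cells and 754 CPM (the share of a gene in all UMIs of the group, where 10000 CPM is 1%) in the 317 GFP cells, while the Y-linked Ddx3y was at 41.7 CPM in the former and at 0 in the latter. The animals thus also differed in sex, which cannot be told apart from the other differences between the groups. Depth differed as well. The selected cells had a median of 9482 UMIs (5011 to 78060) in the whole epithelium library and 24421 (5047 to 95369) in the GFP library, and 55 of 105 against 50 of 317 had under 10000. The condition of 0 Kit UMIs is met more easily by a cell with few UMIs.

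Close to the thresholds, 24 of the 105 and 16 of the 317 cells had 50 to 65 Muc2 UMIs per 10000, while 36 and 26 cells with 35 to 50 lay just outside. Reg4 was at 0 UMIs in 83 and 208 of the selected cells, at 1 in 13 and 82 and at 2 in 9 and 27. The cells just outside with 3 Reg4 UMIs numbered 15 and 5. A further 122 and 192 Muc2-high cells were left out with exactly 1 Kit UMI. Muc2 itself had a median of 100.1 UMIs per 10000 (50.4 to 773) in the whole epithelium cells and 172.6 (51.1 to 1761) in the GFP cells.

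Of the kept cells, 1.96% (1.603 to 2.36) in the whole epithelium library and 8.0% (7.17 to 8.89) in the GFP library met the rule. Among the 573 and 792 Muc2-high cells they were 18.3% (15.2 to 21.7) and 40.0% (36.6 to 43.5). The other Muc2-high cells were 57 and 154 cells without Kit but with at least 3 Reg4 UMIs, called Reg4-high below, and 411 and 321 cells with at least 1 Kit UMI, called Kit-detected. With 10000 to 30000 UMIs per cell the shares of kept cells were 1.38% and 6.19%, and with every cell thinned to 5000 UMIs before the rule they were 5.52% and 13.5%.

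The label of goblet cell was checked with Clca1, Fcgbp and Zg16, the marker genes that the rule did not use. Clca1 (ENSMUSG00000028255, chromosome 3, 145003817 to 145032776, GENCODE M21 on GRCm38) stood at 2061 CPM (1990 to 2133) in the whole epithelium cells and 6142 CPM (6090 to 6195) in the GFP cells. Kept cells with under 50 Muc2 UMIs per 10000, a mixed group that also holds some cells with all 3 markers and in which free RNA was not estimated, had 25.1 and 202.3 CPM. Fcgbp (ENSMUSG00000047730, chromosome 7, 28071236 to 28120862) stood at 2252 and 4882 CPM against 59.5 and 167.7 CPM. Zg16 (ENSMUSG00000049350, chromosome 7, 127050156 to 127087328) stood at 6306 and 11325 CPM against 194 and 335.8 CPM. As summed levels all 3 markers were thus far above the Muc2-low cells of the same library.

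Cell by cell the picture was divided. The median cell had 0 Clca1 UMIs per 10000 in the whole epithelium library, with a highest value of 512, and 5.78 in the GFP library, with a highest value of 774. For Zg16 the median was 1.597 with a highest value of 951 in the former and 3.84 with a highest value of 2404 in the latter. For Fcgbp it was 1.25 (up to 351.3) and 5.71 (up to 1064). The 10 richest of the 105 cells and the 32 richest of the 317, ranked for each gene, held 89.8% and 62.2% of all Clca1 UMIs, 84.2% and 65.6% of Zg16 and 75.9% and 54.9% of Fcgbp. For Muc2 these shares were 38.0% and 25.6%. A single whole epithelium cell gave 38.9% of the Clca1 UMIs of its group, so the summed levels of that library rest on few cells.

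Spink4 and Agr2 were spread over nearly all selected cells. Agr2 (ENSMUSG00000020581, chromosome 12, 35992907 to 36004087) encodes a disulfide isomerase of the endoplasmic reticulum that mucin folding needs. It had a UMI in 100% and 99.4% of the cells thinned to 5000 UMIs (100% and 100% unthinned), with medians of 31.2 and 59.5 UMIs per 10000. Spink4 (ENSMUSG00000028415, chromosome 4, 40920052 to 40931395), a secreted peptide of the Kazal protease inhibitor type, had a UMI in 94.3% and 97.8% of thinned cells (99.0% and 100% unthinned), with medians of 24.8 and 47.7. In Muc2-low cells the thinned shares for Spink4 were 36.3% and 74.6%, with medians of 0.535 and 2.78 UMIs per 10000. Clca1 was found in 31.4% and 74.8% of thinned selected cells (36.2% and 96.8% unthinned), against 5.84% and 51.8% of thinned Muc2-low cells at median depths of 22061 and 21581 UMIs before thinning.

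**Figure D1:**
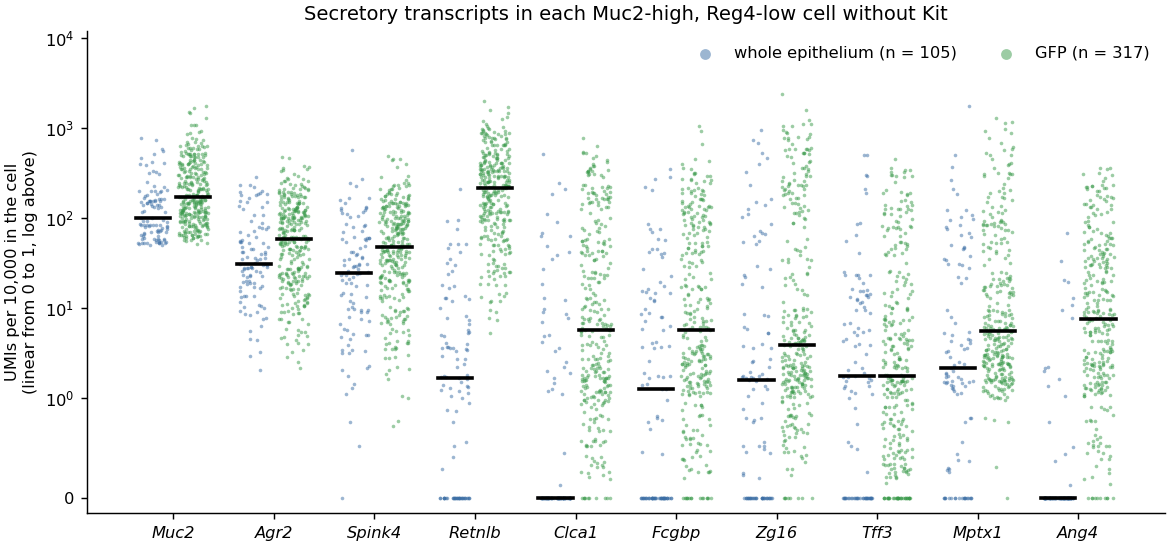
UMIs per 10000 in each selected cell (vertical axis, linear from 0 to 1 and logarithmic above) for 10 secretory genes, with 105 whole epithelium cells in blue, 317 GFP cells in green and black bars at the medians. Muc2, Agr2 and Spink4 are high in nearly every cell, whereas Clca1, Fcgbp, Zg16, Tff3, Mptx1 and Ang4 run from 0 to over 60 in both libraries.

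To describe this division, each selected cell was scored for how many of Clca1, Fcgbp and Zg16 exceeded the 95th percentile of the Muc2-low cells of its library, after thinning to 5000 UMIs. The split was made after these values had been seen and is a description. In the whole epithelium library 59 of 105 cells exceeded it for none of the 3 genes, 12 for 1, 13 for 2 and 21 for all 3. In the GFP library the numbers were 140, 42, 37 and 98 of 317. Without thinning, 54 and 138 cells had none and 26 and 102 had all 3. Of the Muc2-low cells 91.6% and 90.2% had none and 0.793% and 0.410% had all 3. Cells with none and cells with all 3 were thus present in both libraries, at 56.2% and 20% of the whole epithelium cells and 44.2% and 30.9% of the GFP cells. This division was not particular to the selected cells. Of the Kit-detected cells 64.7% and 53.6% had none and 10.9% and 10.9% had all 3. Of the Reg4-high cells 8.77% and 20.8% had none and 66.7% and 25.3% had all 3. The limits were higher in the GFP library, so the shares of the 2 libraries rest on unlike cut-offs. For whole epithelium and GFP they were 1 and 3.5 thinned UMIs for Clca1, 1.4 and 3 for Fcgbp and 2 and 6 for Zg16. Median depth was 9080 UMIs in the whole epithelium cells with none and 9915 in those with all 3, and 25652 and 25236.5 in the GFP cells.

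In the cells with none of the 3 markers, all of which hold Muc2 by the rule, other goblet genes were also present. Agr2 was at 8168 CPM in the 59 whole epithelium cells with none and 4442 CPM in the 21 with all 3, and at 10509 and 5593 CPM in the GFP cells. Spdef, the goblet maturation factor, was at 257.3 against 87.9 CPM and at 281.3 against 113 CPM. Creb3l1, a transcription factor of secretory cells anchored in the endoplasmic reticulum, was at 346 against 172.9 and at 378.1 against 96.6 CPM. All 3 genes were thus higher in cells without the 3 markers, in both libraries, and are not set against Muc2-low cells here. Best2, a channel gene of colonic goblet cells, lay the other way. It was at 3.75 against 35.2 CPM in the whole epithelium cells (3 and 12 UMIs). In the GFP cells it was at 0.978 against 21.3 CPM (4 and 57 UMIs). Atoh1 was nearly level, at 134.9 against 161.2 CPM and 73.6 against 78.2 CPM.

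Sox9, Cd24a and Slc12a2, 3 genes known from crypt cells and chosen after their values were seen, were also higher in the cells with none. Sox9, a transcription factor of crypt progenitors, was at 246 against 46.9 CPM in the whole epithelium cells and at 182.2 against 44.5 CPM in the GFP cells. Cd24a was at 720.6 against 260.8 and at 588 against 128.8 CPM. Slc12a2, the basolateral chloride importer of crypt cells, was at 298.5 against 137.7 and at 374 against 85.7 CPM. The proliferation genes were uneven in the whole epithelium cells, with Top2a at 77.4 against 32.2 CPM, Mki67 at 81.2 against 64.5 (65 and 22 UMIs) and Pcna at 58.7 against 61.5. In the GFP cells they were at 140.6 against 46, 126 against 37.1 and 67.5 against 22.8 CPM.

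Tff3 and several genes known from the colon surface were higher in the cells with all 3 markers. Tff3 was at 10012 CPM with all 3 and 251 with none in the whole epithelium library, and at 9287 and 148 CPM in the GFP library. Capn9, a calpain of the gut surface, was at 105.5 against 18.7 and at 174.8 against 11.7 CPM. Mxd1, a MYC antagonist of differentiating cells, was at 169.9 against 94.9 and at 421.8 against 62.4 CPM. Car1, the carbonic anhydrase of colonocytes, was at 1664 against 898 and at 3825 against 945.6 CPM. The surface keratin Krt20 differed clearly in the GFP cells (446.5 against 89.5 CPM) and little in the whole epithelium cells (187.5 against 157.4 CPM).

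**Figure D2:**
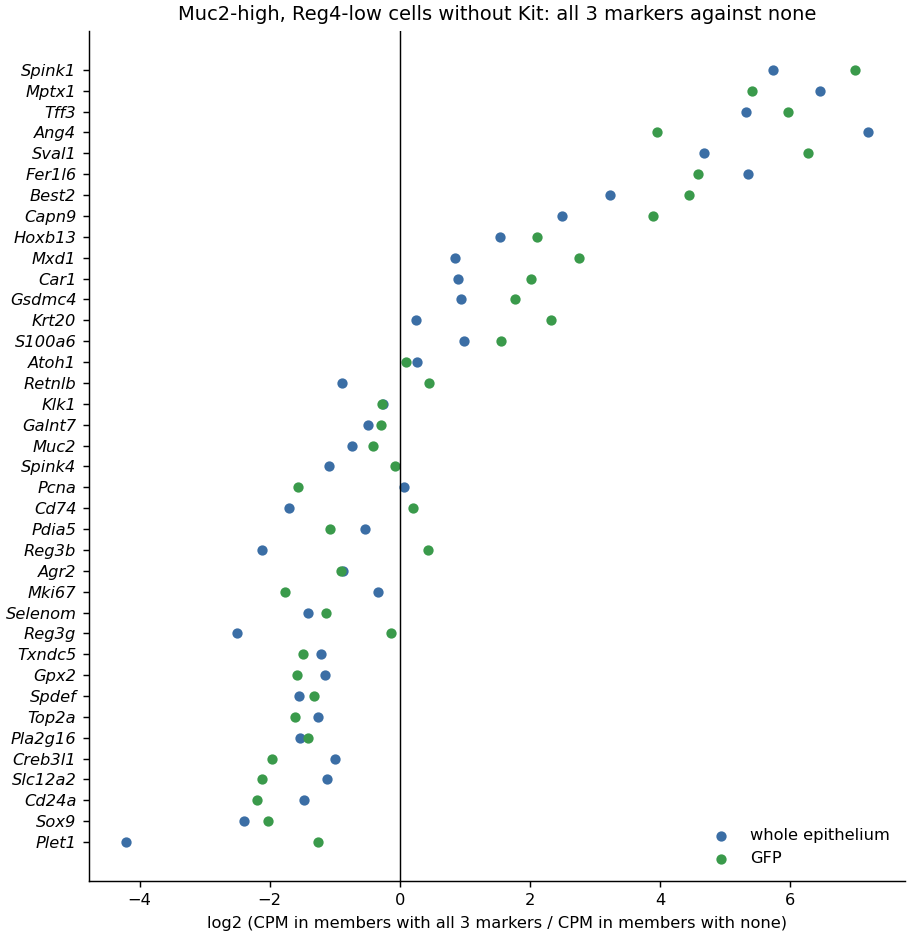
Log2 ratio of CPM (horizontal axis) between selected cells with Clca1, Fcgbp and Zg16 above the Muc2-low level (21 whole epithelium, 98 GFP) and those with none (59 and 140), 1 point per gene and library. Spink1, Mptx1, Tff3, Ang4 and Sval1 lie over 3 to the right in both libraries, and Plet1, Sox9, Cd24a, Slc12a2 and Spdef lie over 1 to the left.

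Across the cells of each library, thinned to 5000 UMIs, the same genes varied together. The rank correlation (Spearman's rho) of Clca1 with Fcgbp was 0.79 over the 105 whole epithelium cells and 0.84 over the 317 GFP cells, with Zg16 0.71 and 0.71, with Tff3 0.55 and 0.62 and with the antimicrobial ribonuclease gene Ang4 0.48 and 0.63. A second set joined Spink4 with Agr2 (0.77 and 0.62), and in the GFP cells also with Retnlb (0.74, against 0.27 in the whole epithelium cells). Clca1 was close to unrelated to Spink4 (0.0049 and -0.02) and weakly related to Muc2 (-0.12 and -0.09). In the GFP cells Agr2 ran weakly against Clca1, Fcgbp and Zg16 (-0.27, -0.27 and -0.25), while Ang4 went also with Retnlb (0.49) and Spink4 (0.24). These are descriptions, since cells of 1 library share animals, depth and free RNA and are not replicates.

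**Figure D3:**
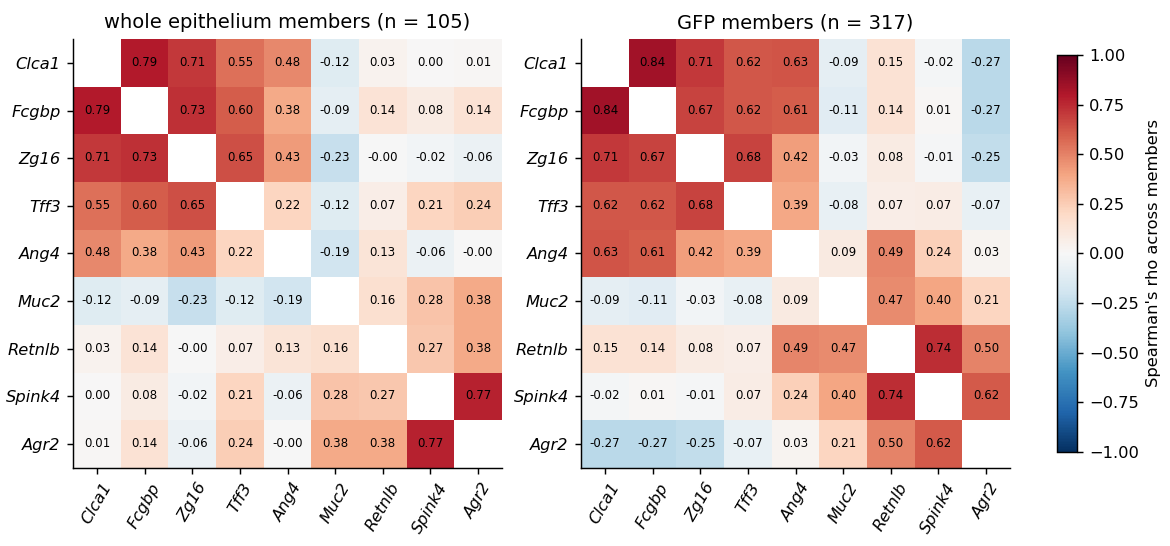
Spearman's rho between 9 secretory genes across the selected cells of each library (105 and 317 cells, thinned to 5000 UMIs), with red for positive and blue for negative values. Clca1, Fcgbp, Zg16, Tff3 and Ang4 form 1 block and Spink4, Agr2 and Retnlb another, with Muc2 nearer to the second. In the GFP cells Ang4 also goes with Retnlb (0.49).

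Of 1199 genes with a mean of at least 0.5 UMIs per thinned cell in both libraries, 34 had a rho with Clca1 of at least 0.2 in both and 40 of -0.2 or lower. The most like Clca1 after Fcgbp and Zg16 were Sval1 (0.66 and 0.62), Tff3, the pentraxin gene Mptx1 (0.58 and 0.54), Ang4, the trypsin inhibitor gene Spink1 (0.45 and 0.62) and the calcium-binding S100a6 (0.45 and 0.65). The most opposite were Plet1 (-0.39 and -0.41), the selenoprotein gene Selenom (-0.34 and -0.33), the ribosomal genes Rpl5 and Rpl18, Pla2g16 (-0.29 and -0.29), the glutathione peroxidase gene Gpx2 (-0.28 and -0.42), Hmgb1 and Cldn15. Relative to their mean, the most variable genes were Mptx1, Zg16, Clca1, Tff3, Fcgbp, Muc2, Spink1, Malat1, Spink4 and Agr2. Mptx1 (ENSMUSG00000026531, chromosome 1, 174330518 to 174332873) had a variance of 385.4 and 240 times its mean, and Zg16 of 221.5 and 314.7 times. A single whole epithelium cell held 33.0% of the Mptx1 UMIs.

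The starts of 3 of these genes are shown, since Clca1, Zg16, Tff3 and Spink4 had no entry among the promoters used. Fcgbp and Agr2 belong to the 2 co-varying sets, and Ang4 was far higher in 1 library. Most genes named in the 2 sets were therefore not examined in this way. Each sequence is the 250 bases before the transcript start in RefSeq's GRCm38.p6 annotation, 5′ to 3′ on the gene's own strand. They are Fcgbp (chr7:28070986-28071235, plus strand), which varied with Clca1, Agr2 (chr12:35992675-35992924, plus strand), which varied with Spink4, and Ang4 (chr14:51773591-51773840, minus strand).
Fcgbp: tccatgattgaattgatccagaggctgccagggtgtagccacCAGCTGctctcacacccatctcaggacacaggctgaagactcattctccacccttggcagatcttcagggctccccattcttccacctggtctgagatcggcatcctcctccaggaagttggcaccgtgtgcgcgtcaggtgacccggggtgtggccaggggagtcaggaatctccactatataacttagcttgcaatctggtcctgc
Agr2: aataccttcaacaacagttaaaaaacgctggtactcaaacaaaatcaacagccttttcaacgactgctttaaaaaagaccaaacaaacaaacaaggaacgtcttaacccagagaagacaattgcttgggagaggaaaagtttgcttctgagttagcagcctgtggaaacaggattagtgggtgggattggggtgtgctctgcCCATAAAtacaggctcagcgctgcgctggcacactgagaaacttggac
Ang4: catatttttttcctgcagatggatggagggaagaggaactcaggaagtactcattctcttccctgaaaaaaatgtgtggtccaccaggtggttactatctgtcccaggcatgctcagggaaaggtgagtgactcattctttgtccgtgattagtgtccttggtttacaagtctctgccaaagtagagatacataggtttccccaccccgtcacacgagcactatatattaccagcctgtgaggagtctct
Capitals mark matches, on either strand, to 4 motifs. CAGCTG, an E-box of the kind bHLH factors such as ATOH1 bind, occurred once in Fcgbp, starting at position -208 from the transcript start, and in 13.0% of 32851 promoters of that length. TTTATNG, a caudal-type site, occurred once in Agr2 at position -48, read on the other strand, and in 9.81% of promoters. GENCODE M21 places the start of Agr2 at 35992907, inside the Agr2 window, so that position holds for the RefSeq start only. TGTTTAC (forkhead, 3.17% of promoters) and TGACGTG (unfolded protein response, 1.65%) had no match in the 3 windows.

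Goblet defence proteins lay in both directions between the libraries, with 6 of 11 tested higher and 5 lower in the GFP cells, 4 and 4 of them at least 2-fold (1.57% and 1.7% of all genes tested). Their median log2 ratio of 0.27 turned to -0.15 with Reg4 at 0 UMIs. With mitochondrial and ribosomal genes left aside, Retnlb headed the GFP cells, followed by Muc2, Zg16, Agr2, Mptx1, Spink4, Clca1 and Fcgbp, while Muc2, Malat1, Agr2, Zg16, Lypd8 and Mptx1 headed the whole epithelium cells (1 UMI is 1 captured 3′ end, so no length enters). Retnlb (ENSMUSG00000022650, chromosome 16, 48816856 to 48818892), a resistin-like goblet peptide that kills bacteria, was at 1282 CPM in the whole epithelium cells and 30181 CPM in the GFP cells, a log2 ratio of 4.56 (4.49 to 4.62). It had a UMI in all 317 GFP cells, and the lowest cell there, with 5.30 UMIs per 10000, exceeded the whole epithelium median of 1.68. Muc2-low cells of the same libraries had 38.3 and 1391 CPM, so the 2 libraries differed there too, by a larger fold than in the selected cells. The lowest selected GFP cell lay below that GFP level. A UMI in every cell therefore does not set the selected cells apart from Muc2-low cells.

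Ang4 (ENSMUSG00000060615, chromosome 14, 51763878 to 51773590) was at 208.5 and 4079 CPM (log2 ratio 4.29, 4.13 to 4.45). Muc2-low cells had 1.95 and 204.2 CPM, a larger fold between the libraries. Ang4 had a UMI in 19 of 105 whole epithelium cells, and 1 cell held 51.7% of its UMIs. Itln1, the intelectin that binds microbial glycans, was at 12.8 and 113 CPM (3.14, 2.50 to 3.85). Lpo, lactoperoxidase, was at 14.8 and 228.3 CPM (3.95, 3.36 to 4.61), but was at similar or higher levels in Muc2-low cells, at 24.0 and 209.8 CPM. The same held for Pla2g4c, a phospholipase, at 1.28 and 53.9 CPM in the selected cells (5.39, 3.53 to 8.44, with 2 UMIs in the whole epithelium cells) and 1.85 and 67.6 CPM in Muc2-low cells.

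The lectin genes of the Reg3 family lay the other way. Reg3b (ENSMUSG00000071356, chromosome 6, 78370657 to 78373466) was at 4748 CPM in the whole epithelium cells and 1248 CPM in the GFP cells (log2 ratio -1.93, -1.97 to -1.89), and at 10109 and 1409 CPM in Muc2-low cells. In the whole epithelium cells it moved with depth, at 7449 CPM in the 55 cells with under 10000 UMIs, 4870 CPM in the 41 with 10000 to 30000 and 2164 CPM in the 9 with more. In the GFP cells Reg3b was at 817 CPM in the 50 with under 10000 UMIs, 701 CPM in the 143 with 10000 to 30000 and 1562 CPM in the 124 with more. The 2 libraries thus differed least in the deepest cells. Reg3g was at 1090 and 542.4 CPM (-1.01, -1.09 to -0.93). Ang4, Mptx1, Reg3b and Reg3g have close paralogs, as do the Sprr2, Gsdmc, Ifi27l2, Clca and class II genes named below, so reads may have been divided among copies and these counts are uncertain beyond the intervals given.

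Of 7843 genes with at least 100 UMIs over both groups and outside the rule, 123 were at least 2-fold higher (1.57% of those tested) and 133 at least 2-fold lower (1.7%) in the GFP cells. The median log2 ratio over all of them was -0.02. Among genes at 50 CPM or more in 1 library, the highest ratios after Pla2g4c, Retnlb, Ang4, Lpo and Itln1 belonged to H2-Aa (2.50), Ceacam10 (2.28), Sprr2a3 (2.24), Gsdmc2 (2.01), Cd177 (1.91), Clca3b (1.91) and Gsdmc3 (1.86). The lowest were Ifi27l2b (-4.09, from 539.4 to 31.7 CPM), Tceal8 (-3.07), Tgm3, a transglutaminase (-2.90, from 100.1 to 13.4 CPM), Iigp1 (-2.55), Edn1 (-2.54), Slfn4 (-2.46), Ifi27l2a (-2.21), Fabp6 (-2.08), Reg3b, Nr4a1 (-1.78), Hsd3b3 (-1.73) and Cyr61 (-1.72). With the rule applied to cells thinned to 5000 UMIs, 52 genes were higher and 82 lower.

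The transcripts of the mucus proteins differed less than those of Retnlb and Ang4. Clca1 had a log2 ratio of 1.58 (1.52 to 1.63), Fcgbp 1.12 (1.07 to 1.17) and Zg16 0.84 (0.81 to 0.87). All 3 kept that sign under every alternative of the closing section, down to 0.49, 0.28 and 0.32. With the rule on thinned cells Clca1 rose to 2.57 and Fcgbp to 1.80. Spink4 (0.44) and Agr2 (0.25) differed by under 1.5-fold. Tff3, at 2623 and 2990 CPM, had a ratio of 0.19 that ranged from -0.48 to 0.36 over the alternatives. The list of type 2 cytokine response genes holds genes that interleukins of allergic and anti-worm responses raise. This list and the others used here were chosen with earlier results of these data known. Counts on them are therefore descriptions and not tests. The median log2 ratio of the type 2 list was 1.14. Of 13 tested genes 9 were higher in the GFP cells (47.3% of all genes tested were). At least 2-fold higher were 7 of them, against 1.57% of all genes tested. Besides Retnlb, Ang4 and Clca1 these were Sprr2a3, Gsdmc2, Gsdmc4 (1.14) and Pnliprp2 (4.45, with 2 UMIs in the whole epithelium cells). With 10000 to 30000 UMIs per cell Gsdmc4 was at 0.34 and the related Gsdmc3 at 0.60. The cytokine receptor genes Il13ra1 and Il4ra, at -0.40 and -0.04, were not among them.

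Class II genes were higher and class I, interferon response and immediate early genes mostly lower in the GFP cells. All 6 tested MHC class II genes were higher in the GFP cells (median log2 ratio 1.64), 5 of them at least 2-fold. Of all genes tested 47.3% were higher and 1.57% at least 2-fold higher. Cd74, the invariant chain, was at 161 and 465.8 CPM. Muc2-low cells had 343.5 and 1196 CPM of Cd74. Of 11 MHC class I genes 10 were lower, none of them 2-fold, with a median of -0.33. Of 23 interferon response genes 22 were lower (52.7% of all genes tested were), with a median of -0.80. At least 2-fold lower were 10 of them, against 1.7% of all genes tested. Irf7 was at 213 and 77.2 CPM and Isg15 at 56.4 and 21.3 CPM. Of 25 immediate early and heat shock genes, which dissociation raises, 23 were lower (median -0.89, 8 at least 2-fold). Atf3 was at 594 and 198.6 CPM, Jun at 1423 and 781.5 CPM and Fos at 1403 and 788.1 CPM, whereas Hspa8 was at 1855 and 2036 CPM. The part of handling, depth and free RNA in these differences was not tested.

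**Figure D4:**
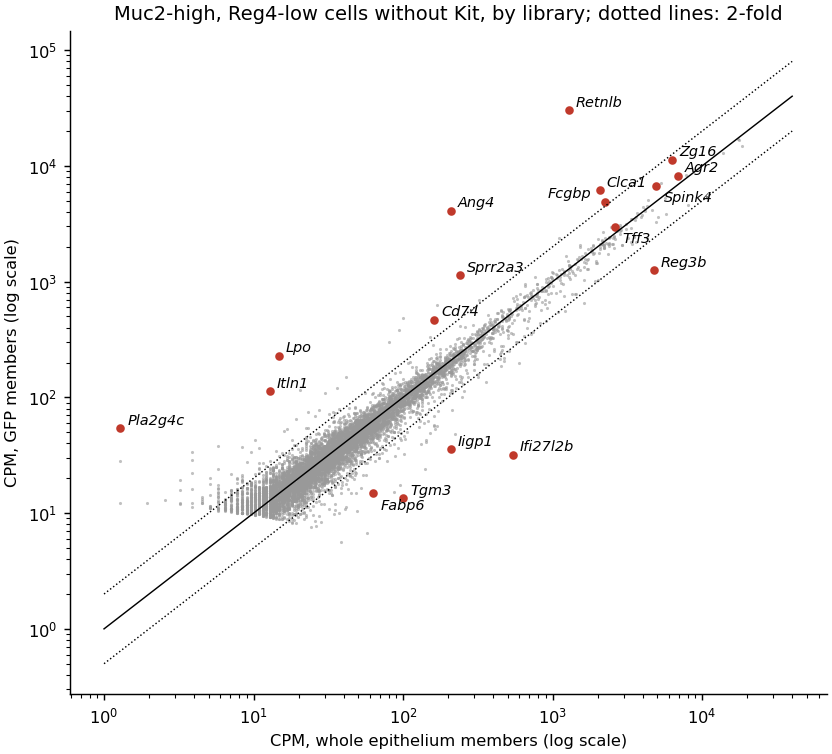
CPM of each tested gene with UMIs in both groups, in the 105 whole epithelium cells (horizontal axis) and the 317 GFP cells (vertical axis), both on log scales, with the line of equal level and dotted lines at 2-fold. Retnlb, Ang4, Lpo, Itln1 and Pla2g4c lie far above the upper dotted line and Ifi27l2b, Iigp1, Tgm3 and Reg3b below the lower, while Agr2, Spink4 and Tff3 lie near equality.

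The machinery that builds mucin differed little between the libraries. Of 34 tested genes of folding in the endoplasmic reticulum and the unfolded protein response, 24 were higher in the GFP cells (47.3% of all genes were), with a median of only 0.14 that turned to -0.07 with Muc2 at 200 or more per 10000, and Ddit3, a stress-response factor, was the single one past 2-fold (-1.23, where 1.7% of all genes were as low). Of 28 genes of mucin O-glycosylation 12 were higher (median -0.07, but 0.08 with equal weight per cell), and B3gnt6, the core 3 synthase, and St6gal1, a sialyltransferase, were at least 2-fold lower (-1.05 and -1.46). With 10000 to 30000 UMIs per cell B3gnt6 was at -0.27 and St6gal1 at -1.68. Of 13 goblet transcription factors 3 were higher (median -0.14, but 0.06 with equal weight per cell). Atoh1 was at 129.6 and 72.5 CPM and Spdef at 190.5 and 217.3 CPM.

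Compared with Reg4-high cells, the selected cells differed in few genes alike in both libraries. In the whole epithelium library 19 of 3175 genes were at least 2-fold higher (0.598%) and 12 lower (0.378%), and in the GFP library 62 of 8500 were higher (0.729%) and 24 lower (0.282%). Of 3173 genes tested in both, 1 was at least 2-fold higher in both (0.0315%) and 6 were at least 2-fold lower in both (0.189%). The gene that was higher, B3gnt6 (ENSMUSG00000074004, chromosome 7, 98192417 to 98199481), makes the core 3 branch of mucin O-glycans. It was at 55.8 against 22.2 CPM in the whole epithelium library (log2 ratio 1.33, 0.58 to 2.15) and at 27.0 against 10.5 CPM in the GFP library (1.37, 0.92 to 1.84). With at most 15% mitochondrial UMIs, with Reg4 at 0 UMIs or with 10000 to 30000 UMIs per cell, no gene was 2-fold higher in both. There B3gnt6 had fewer than the minimum of 100 UMIs in the whole epithelium library (87 and 18 UMIs at the main settings) and was not tested, while its GFP ratio was 1.28 to 2.29. With equal weight per cell the whole epithelium ratio was 0.76.

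Among the 6 lower genes was Mptx1, at 5302 against 22573 CPM (-2.09, -2.13 to -2.05) and 7091 against 30727 CPM (-2.12, -2.13 to -2.10). Spink4 was at 4947 against 14266 CPM (-1.53, -1.57 to -1.49) and 6692 against 14392 CPM (-1.10, -1.12 to -1.09). Both encode secreted products. Sval1 was lower by -2.02 and -1.29, Hoxb13, the homeobox gene of the distal colon, by -1.16 and -2.01, and the transthyretin gene Ttr by -2.43 and -1.21. Ccl6, Adh1, Itih5 and H2-Ab1 were the next lower genes, at -0.71 to -0.99.

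The next higher genes were below 2-fold in at least 1 library. Reg3b was at 4748 against 2582 CPM and 1248 against 639.7 CPM, Reg3g at 1090 against 561.6 and 542.4 against 297.2 CPM, and Plet1 at 448.4 against 96.3 and 573.7 against 349.1 CPM. Mt3, a metallothionein, had log2 ratios of 1.82 and 0.80, B4galnt1 0.79 and 0.88, Dst 0.66 and 0.89, and the interferon-induced Ifi27l2a, Oasl1 and Ifit1 1.03 and 0.96, 0.70 and 0.70, and 0.76 and 0.68. With Muc2 at 200 or more per 10000, Ifit1 turned to -0.11 in the GFP library and Reg3g to -0.28 in the whole epithelium library, and with 10000 to 30000 UMIs Ifit1 was at 0.04 in the former. Of the interferon list 14 of 20 and 16 of 22 genes were higher, where 66% and 56.4% of all genes were, and the whole epithelium median of 0.29 turned to -0.20 with Muc2 at 200 or more per 10000. The 2 class II genes tested in the whole epithelium library and all 6 tested in the GFP library were lower (medians -0.83 and -0.68), where 34% and 43.6% of all genes were. H2-Ab1 and Cd74 turned to 0.091 and 0.41 in the whole epithelium library with the rule on thinned cells.

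Some mucus genes lay in opposite directions in the 2 libraries. Zg16 was at 6306 CPM in the selected cells and 9165 CPM in Reg4-high cells of the whole epithelium library, but at 11325 against 3685 CPM in the GFP library. Tff3 was at 2623 against 3092 CPM and 2990 against 1329 CPM. All 3 unused markers exceeded the Muc2-low level in 38 of 57 Reg4-high cells of the whole epithelium library and 39 of 154 of the GFP library (38 and 49 unthinned), against 21 of 105 and 98 of 317 selected cells. Markers of hormone-producing cells moved with this comparison in the GFP library. The 8 enteroendocrine markers summed to 84.0 CPM in the selected and 471.6 CPM in the Reg4-high cells, and to 74.4 and 46.9 CPM in the whole epithelium library. Their part in the result was not tested.

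Against Kit-detected cells the selected cells held more Zg16, Tff3, Fcgbp and Clca1 and less Spink4 and Mptx1. In the whole epithelium library 150 of 8345 genes were at least 2-fold higher (1.8%) and 119 lower (1.43%), and in the GFP library 75 of 9248 were higher (0.811%) and 12 lower (0.13%). Of 8255 genes tested in both libraries, 43 were at least 2-fold higher in both (0.521%) and 4 at least 2-fold lower in both (0.0485%), and 2, Tff2 and Ido1, were lower in the whole epithelium and higher in the GFP library (0.0242%). Zg16 was at 6306 against 1927 CPM in the whole epithelium library (log2 ratio 1.71, 1.68 to 1.75) and 11325 against 2491 CPM in the GFP library (2.18, 2.16 to 2.20). Tff3 was at 2623 against 991.9 CPM (1.40) and 2990 against 936.4 CPM (1.68). Fcgbp had ratios of 1.77 and 1.08, and Clca1 of 2.63 and 1.00, at 2061 against 333.2 and 6142 against 3081 CPM. The whole epithelium values are those in which few cells hold most of the UMIs. On the whole list of mucus layer components 13 of 18 and 10 of 17 genes were higher (medians 0.62 and 0.26, 50.1% and 40.8% of all genes were), and on the list of canonical goblet genes 4 of 12 and 6 of 12 (medians -0.45 and -0.02).

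The other genes with the highest ratios in both libraries were the interferon-induced Ifit1 (1.38 and 1.67), Sptssb (1.35 and 1.5), the laminin gene Lamb3 (1.32 and 1.39), Spink1 (1.29 and 2.22), Pmp22 (1.26 and 1.30), the cornified envelope gene Sprr2a3 (1.48 and 1.25), Krt20 (1.24 and 1.36) and the bile acid transporter gene Slc51b (1.45 and 1.23). All of these but Spink1 were higher still in the Muc2-low cells. Krt20 had 196.9 and 215.8 CPM in the selected cells, 83.5 and 84.0 in Kit-detected cells and 517.3 and 734.8 in Muc2-low cells. The list of intercrypt goblet genes, which mark goblet cells of the surface, had 12 of 14 and 13 of 14 genes higher (medians 1.27 and 0.78). Of all genes tested 50.1% and 40.8% were higher. Mxd1 was at 114.2 against 46.4 and 181.7 against 79.3 CPM, and Gsdmc4 at 150.7 against 56.9 and 332.2 against 185.2 CPM.

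Markers of absorptive colonocytes moved in the same direction. Of 8 markers 7 and 8 were higher (medians 1.21 and 0.76), where 50.1% and 40.8% of all genes were. Of the 8 markers 3 are also on the intercrypt list. Their summed level was 5718 and 4992 CPM in the selected cells, 4403 and 2911 CPM in Kit-detected cells and 11834 and 13454 CPM in Muc2-low cells. Car1 was at 1526 against 670.6 and 2060 against 900.4 CPM, and the serum amyloid gene Saa1 at 821 against 307.5 and 442.9 against 196.9 CPM. The part of colonocyte RNA, free or from doublets, in these ratios was not tested.

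Of the 4 genes that were 2-fold lower in both libraries, Best2, the bestrophin channel of colonic goblet cells, was at 18.6 against 43.5 CPM (-1.23, -1.82 to -0.68) and 8.73 against 20.2 CPM (-1.21, -1.61 to -0.82). Its whole epithelium value rests on 29 UMIs in 11 selected cells, with 37.9% of them in 1 cell. Mptx1 was at 5302 against 13613 CPM and 7091 against 14781 CPM (-1.36 and -1.06), and was the second of the 4 genes. Spink4 was at 4947 against 10347 and 6692 against 11257 CPM (-1.06 and -0.75), and the chemokine gene Ccl6 had ratios of -1.35 and -0.99. The tight junction gene Cldn14 (-1.75 and -2.66) and the sulfotransferase gene Gal3st2c (-1.29 and -1.82) were the other 2 of the 4. Tcf7l1, Ttr, Plcb4, Cbfa2t3, Acsl1 and Cxxc5 followed at -0.73 to -1.44.

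The genes that build and fold mucin were slightly lower as groups. In folding and unfolded protein response 32 of 34 and 30 of 34 genes were lower than in Kit-detected cells (49.9% and 59.2% of all genes were), with medians of only -0.35 and -0.18. Txndc5, a disulfide isomerase, was at 377.2 against 582.7 and 301.8 against 410.8 CPM, and Pdia5 at 88.5 against 145.5 and 96.3 against 135.4 CPM. In mucin O-glycosylation 24 of 30 and 22 of 29 genes were lower (-0.41 and -0.24), among them the initiating transferase Galnt7 (311.7 against 504.8 and 368.3 against 452.3 CPM) and C1galt1, the core 1 synthase (166.8 against 273.5 and 234.7 against 277.2 CPM). The median over all genes was 0.00 and -0.05.

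Of 13 and 14 goblet transcription factors 8 and 10 were lower (medians -0.45 and -0.29), not far from the 49.9% and 59.2% of all genes. Atoh1 was at 129.6 against 202.9 and 72.5 against 112.5 CPM, and Spdef at 190.5 against 265.7 and 217.3 against 271.9 CPM. Klf4 and Cdx2, factors of surface and intestinal differentiation, lay the other way, with Cdx2 at 155.9 against 110.8 and 162.3 against 135.1 CPM. With Muc2 at 200 or more per 10000 the whole epithelium log2 ratios of Cdx2 and Sox9 turned to -0.11 and 0.11. Of 10 and 11 Wnt and crypt base genes 9 and 10 were lower (-0.45 and -0.37), with Slc12a2 at 225.8 against 377.9 and 252.9 against 382.4 CPM and Sox9 at 163.6 against 223.3 and 124.7 against 169.6 CPM. Of 30 oxidative phosphorylation genes 28 were higher in each library, where 50.1% and 40.8% of all genes were. Their medians were 0.17 and 0.13, and the former turned to -0.09 with Muc2 at 200 or more per 10000. Of DNA replication and mitosis genes 28 of 31 were higher in the whole epithelium library and 11 of 32 in the GFP library. Their medians were 0.37 and -0.08. The whole epithelium median turned to -0.69 with Muc2 at 200 or more per 10000. The GFP median turned to 0.62 with the rule on thinned cells.

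**Figure D5:**
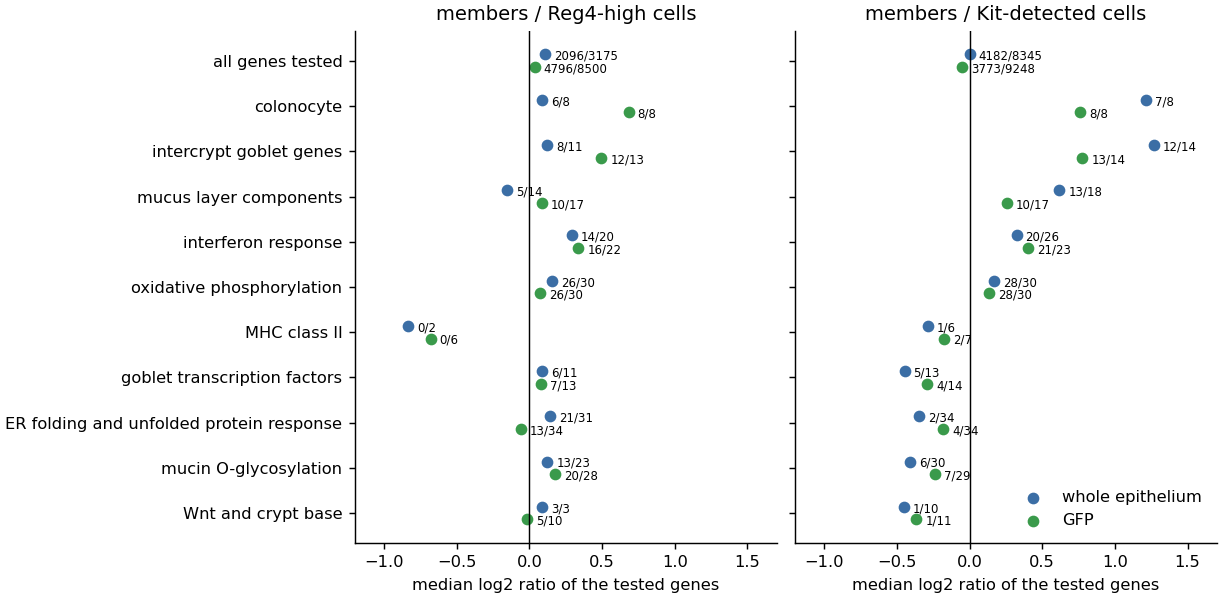
Median log2 ratio of 10 gene lists and of all genes tested (horizontal axis) in the selected cells over Reg4-high cells (left) and over Kit-detected cells (right), blue for whole epithelium and green for GFP, with the number of genes higher over the number tested. Against Kit-detected cells the colonocyte and intercrypt lists lie above 0.7 and the folding, glycosylation and crypt base lists below 0, and of the lists drawn, the class II list lies lowest against Reg4-high cells.

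Depth moves with this comparison. In the whole epithelium library the Kit-detected cells had a median of 22252 UMIs against 9482 in the selected cells, and in the GFP library 26487 against 24421. With the rule applied to thinned cells, 13 genes were 2-fold higher and 1 was 2-fold lower in both libraries. Zg16 kept ratios of at least 1.19 and 2.05 over the alternatives and Krt20 of at least 1.14 and 0.95. With Muc2 at 200 or more per 10000, which left 21 whole epithelium cells, Mptx1 turned to 0.28 in that library.

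Markers of connective tissue, vessel and immune cells were low. All 5 fibroblast markers were at 0 in both libraries, and of 4 endothelial markers Cdh5, Kdr and Cldn5 were at 0. The 6 myeloid markers summed to 3.21 and 3.45 CPM with Lyz2, C1qb and Csf1r at 0, the 6 B and plasma cell markers to 3.85 and 0.690 CPM with all but Igkc at 0, and the 8 T and NK markers to 12.8 and 0.345 CPM. The 8 tuft markers summed to 1.28 and 7.58 CPM, against 7.87 and 19.03 CPM in Muc2-low cells. The 8 cycling markers summed to 420.8 and 491.1 CPM, against 509.3 and 564 CPM in Muc2-low cells, and the 6 stem cell markers to 302.1 and 325.9 against 276.7 and 240 CPM. Most of the stem cell sum in the selected cells came from Slc12a2, described above as the chloride importer of crypt cells. Lgr5 and Ascl2 had too few UMIs to be compared between the selected cells of the 2 libraries.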

How the data were processed

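Single-cell RNA libraries of mouse colon epithelium were made with the 10x Genomics 3′ v2 chemistry, per the labels' protocols. The deposited values are UMI counts per gene and barcode, not normalised by the authors. Cell Ranger 2.1.1 and mm10 stand in the submitters' processing notes, while the matrix headers name version 3.1.0. Cell-calling settings are not given in the sources used here. Each matrix of 31053 genes was joined to the barcode list of its length. The members and gene lists were chosen with earlier results of these data known.

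UMIs were summed per group and given as CPM. The 95% intervals are exact: Poisson for CPM, conditional binomial for log2 ratios, Clopper-Pearson for shares. Genes with at least 100 UMIs over the 2 groups were compared, with a floor of 3 UMIs for a group at 0, and a difference was counted from 2-fold, without p-values. The ratio script was tested on simulated data. Named genes were fixed by rule: 12 per direction between libraries (50 CPM or more in 1 group), 10 per direction against other Muc2-high cells (20 CPM, ranked by the smaller of the 2 ratios), the top 15 by CPM, 10 by Fano factor, 8 per direction by correlation with Clca1, and list examples. Predicted genes were not named. Alternatives were another Muc2, Reg4 or mitochondrial threshold, a depth window, thinned counts, equal weight per cell and a higher gene minimum. No doublet caller was run. Scripts used Python with numpy, scipy and pandas. Some genes that met the naming rule are not reported here.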

Additional observations from a re-analysis of the deposited data

Results flagged for a closer look

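Several genes lay in opposite directions in the 2 libraries, by at least 0.5 on the log2 scale in each. With 1 library per group, these differences between libraries were not tested. Against Reg4-high cells, Zg16 had a log2 ratio of -0.54 in the whole epithelium library and 1.62 in the GFP library. Ang4 had 1.08 and -0.65, with 51.7% of the whole epithelium UMIs in 1 cell. Iigp1, an interferon-induced GTPase, had 0.77 and -0.97, and the mitosis gene Ube2c 1.85 and -0.61. With Muc2 at 200 or more per 10000 the 2 Iigp1 ratios were -0.53 and 0.65. In Reg4-high whole epithelium cells 1 cell held 68.7% of the Iigp1 UMIs. Against Kit-detected cells, the granin gene Chgb had -0.86 and 2.63, Ido1, an enzyme of tryptophan breakdown, -1.12 and 3.05, and the trefoil gene Tff2 -2.25 and 2.11. In the selected GFP cells 1 cell held 44.4% of the Chgb UMIs, 1 cell 50% of those of Ido1 and 1 cell 45.8% of those of Tff2. In the whole epithelium library 1 Kit-detected cell held 63.8% of the Chgb UMIs and 68.4% of those of Tff2.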

How the results depend on the processing

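The shares of kept cells and the counts of genes past 2-fold moved with the rule, so they describe these cut-offs. Shares are given for the whole epithelium and GFP libraries in turn. With Muc2 at 200 or more per 10000 the shares were 0.391% and 3.58%, 3 genes were higher than in Reg4-high cells in both libraries, 18 were higher than in Kit-detected cells and 0 lower. With Reg4 at 0 UMIs the shares were 1.55% and 5.25%, 0 genes were higher than in Reg4-high cells and 7 lower than in Kit-detected cells. With at most 15% mitochondrial UMIs, 0 genes were higher than in Reg4-high cells. With 10000 to 30000 UMIs per cell the shares were 1.38% and 6.19%, 69 genes were higher in GFP than in whole epithelium cells and 0 higher than in Reg4-high cells. With the rule on cells thinned to 5000 UMIs the shares were 5.52% and 13.5%, 52 genes were higher and 82 lower in GFP cells, 14 and 11 against Reg4-high cells and 13 and 1 against Kit-detected cells. With at least 1000 UMIs per gene these counts were 19 and 19, 0 and 3, and 11 and 1, since fewer genes were tested. Without the deepest cells (10% of each group of selected cells), an alternative chosen after seeing the data, 65 and 2 genes passed against Kit-detected cells. Other than for the gene minimum, the cause was not tested. Log2 ratios that were past 2-fold changed sign in the whole epithelium library with Muc2 at 200 or more for Mptx1 (0.28), Gsdmc4 (-0.065), Hsd3b3 (-0.051) and Ube2c (-0.79) against Kit-detected cells, and on thinned cells for Ang4 (-0.052) against Reg4-high cells. Of the other log2 ratios of single genes, 2625 values moved by less than their counting interval and 1629 by more. No paired analysis was possible because each group has 1 library. The depth of the 105 whole epithelium cells limits what can be seen for genes below about 20 CPM.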
